A study of Mus musculus with 12 samples.

Results

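The genes described here are the core of the nuclear factor kappa B (NF-kappaB) pathway and its upstream toll-like receptors: 3 inhibitors (Nfkbia, Nfkbib and Tnfaip3), 4 subunits (Nfkb1, Nfkb2, Rela and Relb), 2 receptors (Tlr2 and Tlr4) and the adaptor Myd88. They were chosen by symbol, with earlier results of these data known. All 10 were found among the 32285 genes of the count table and were among the 15229 genes with enough counts to test. NF-kappaB dimers wait in the cytoplasm bound to inhibitors of the IkappaB family. Toll-like receptors and cytokine receptors activate a kinase complex that marks the inhibitor for destruction, after which the dimer enters the nucleus and induces inflammatory genes together with its own inhibitors. In the intervertebral disc the pathway is known for driving cytokines and matrix proteases, and toll-like receptors can sense fragments of the disc matrix.

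RNA was sequenced in bulk from the soft centre of tail discs, the nucleus pulposus, of 6 Opa1cKO and 6 WT mice, with 1 mouse per library. In Opa1cKO mice the gene of Opa1, a GTPase that fuses inner mitochondrial membranes, was deleted in disc and cartilage at 3 months with AcanCre, a Cre recombinase active in cells that express aggrecan. Both genotypes were of the C57BL/6-129/SvEv strain, received tamoxifen at 100 mg/kg on 3 days, and were 12 months old at collection, 9 months after deletion. The study asks what loss of Opa1 does to the transcriptome of this tissue. By label, 4 WT and 2 Opa1cKO mice were female, and 2 WT and 4 Opa1cKO mice were male. Labelled sex was thus unbalanced between genotypes. The labels do not state if WT mice carried floxed alleles or Cre.

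Opa1 itself fell in Opa1cKO to 30.2, 40.8 and 47.7 CPM, the count scaled by library size (lowest, median and highest library), against 69.3, 108 and 118 CPM in WT. Its log2 fold change was -1.22 (standard error, SE, 0.116, edgeR adjusted p = 3.05e-05). Libraries held 37268242 to 56618266 counts in Opa1cKO and 45657321 to 53261644 in WT. The notochord factor T, a defining nucleus pulposus marker, averaged 2882 ± 274 CPM in Opa1cKO and 2719 ± 245 CPM in WT (SD, n = 6 each), and the nucleus pulposus keratin Krt19 averaged 2095 ± 570 CPM in Opa1cKO and 2097 ± 456 CPM in WT. Of 14 nucleus pulposus markers 12 were tested, of which 0 rose and 2 fell (Slc2a1 and Cdh2). At an unadjusted p below 0.05 there were 6, and the median log2 fold change was -0.19. Over all genes tested, edgeR called 5.1% higher and 5.13% lower, and 25.2% had an unadjusted p below 0.05. The summed level of the 14 markers ran from 18533 to 26638 CPM in Opa1cKO and from 22764 to 31975 CPM in WT (two-sided exact permutation p = 0.0195). A large part of that sum was Acan, which encodes the proteoglycan aggrecan, at 8628 ± 2968 CPM in Opa1cKO and 13062 ± 2325 CPM in WT (SD, n = 6 each). Its log2 fold change of -0.53 was not called (edgeR adjusted p = 0.103). The part of these markers in the results was not tested. Sex-linked reads contradicted the labelled sex of 4 libraries, Opa1cKO 4 and WT 4, 5 and 6, so results are also given with these libraries left out, where Opa1 stood at -1.16 (edgeR adjusted p = 0.00711). The comparison then rests on Opa1cKO 5 and 6 against WT 1, 2 and 3, since labelled sex is in the fit and all remaining WT libraries are labelled female. By their reads, 3 Opa1cKO and 5 WT libraries were female, and 3 Opa1cKO libraries and 1 WT library were male.

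Of the 10 genes, 3 fell in Opa1cKO (Tnfaip3, Nfkbia and Tlr4) and 0 rose, called at an edgeR adjusted p below 0.05. Over all genes tested, 5.13% were called lower and 5.1% were called higher. As the set was chosen with earlier results known, the shares in this paragraph are set side by side without a test. At an unadjusted p below 0.05 (edgeR) there were 4 of the 10, with Nfkb1 as the additional one, against 25.2% of all genes tested. DESeq2 called 3 of the 10, with no share over all genes set beside it. For the 3 called genes every Opa1cKO library lay below every WT library. Over all genes tested, 6.41% had CPM ranges that did not overlap, and 3.64% did so with Opa1cKO lower. The median log2 fold change of the 10 was -0.18, beside 0.01 for all genes tested. The inhibitors thus held 2 of the 3 falls, the receptors 1 and the subunits 0. With sex taken from the sex-linked reads in place of the label, Tnfaip3, Nfkbia and Tlr4 stood at -0.90, -0.62 and -0.42. All 3 were called in that fit (edgeR adjusted p = 0.000302, 0.00730 and 0.0135).

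**Figure D1:**
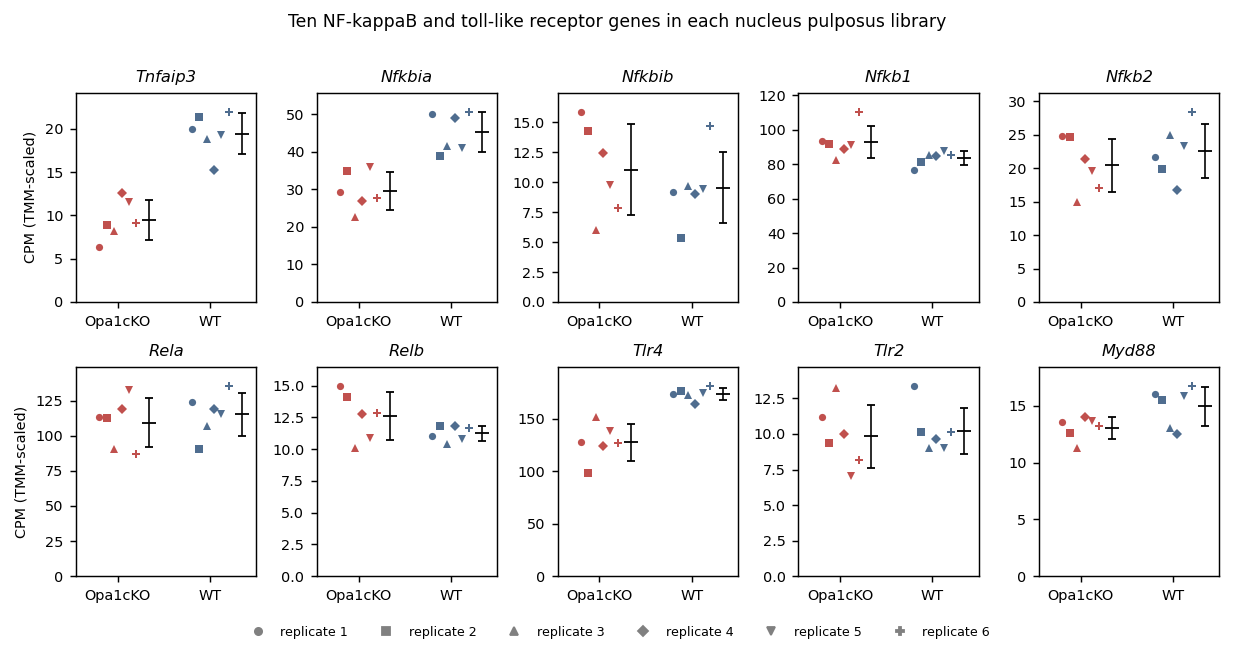
Level in CPM (y axis, from 0) of each of the 10 genes in 6 Opa1cKO and 6 WT libraries, with 1 point per library, a marker shape per replicate number, and a bar for mean ± SD. Every Opa1cKO point lies below every WT point for Tnfaip3, Nfkbia and Tlr4, and the genotypes overlap for the other 7 genes.

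Tnfaip3 encodes a ubiquitin-editing enzyme that shuts down signalling from toll-like and tumour necrosis factor receptors, and is itself an NF-kappaB target. It was at 6.30, 9.02 and 12.6 CPM in Opa1cKO (lowest, median and highest library), against 15.3, 19.6 and 22.0 CPM in WT. All 6 Opa1cKO libraries lay below all 6 WT libraries. Tnfaip3 fell to 48.8% of WT, with a log2 fold change of -1.03 and an SE of 0.162 (edgeR adjusted p = 0.00152). This was the largest change among the 10 genes, in the gene with the lowest level per length. Leaving out the 4 libraries of contradicted sex gave -0.95 (adjusted p = 0.0422).

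Nfkbia encodes IkappaB-alpha, the inhibitor that is destroyed and then resynthesised during each round of NF-kappaB activation. It was at 22.6, 28.5 and 36.0 CPM in Opa1cKO, against 38.8, 45.2 and 50.6 CPM in WT, again with no overlap. Nfkbia fell to 66.3% of WT (log2 fold change -0.59, SE 0.124, edgeR adjusted p = 0.00892). With the 4 libraries of contradicted sex left out it stood at -0.45 and was no longer called (adjusted p = 0.261). Among libraries that are female by their reads, 3 Opa1cKO and 5 WT, it stood at -0.56 and was called (adjusted p = 0.0408). That set of libraries was added after the data were seen.

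Nfkbib encodes IkappaB-beta, a second inhibitor that is not rapidly resynthesised. It was at 6.05, 11.1 and 15.9 CPM in Opa1cKO, against 5.31, 9.34 and 14.7 CPM in WT. The genotypes covered nearly the same range, and Nfkbib had the widest spread of the 10 genes relative to its mean, with a coefficient of variation of 34.5% in Opa1cKO and 31.4% in WT. Its log2 fold change was 0.05 (95% interval -0.46 to 0.55, edgeR adjusted p = 0.933), so the data are compatible with a change of either sign within that interval. Nfkbib shares 778 bases with Sirt2 on the opposite strand, which was at 65.5 CPM in Opa1cKO and 66.7 CPM in WT. Overlaps are given between whole gene spans, introns included, and shared exons were not checked. As no source used here states how strand was treated in counting, reads that fall in both genes cannot be assigned. In the GENCODE M21 annotation, Tnfaip3 (chr10:19000910-19015657), Nfkbia (chr12:55489410-55492647) and Tlr4 (chr4:66827584-66930284), in mm10 coordinates, overlap no other gene. The same holds for Rela (chr19:5637483-5648130), Relb (chr7:19606217-19629438) and Tlr2 (chr3:83836272-83841767). Nfkbib lies at chr7:28758251-28767512, Nfkb1 at chr3:135584655-135691547, where it shares 3897 bases with Gm43430 on the same strand, Nfkb2 at chr19:46304320-46312385 and Myd88 at chr9:119335934-119341411.

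Both inhibitor genes that fell are known NF-kappaB targets, so their promoters are printed beside those of Nfkb2 and Tlr2, which hold the same motif and were not called. Each is the RefSeq window (GRCm38.p6) of 250 bases before to 50 after the gene's start, 5′ to 3′ on the gene's strand. Capitals mark matches on either strand, overlapping ones included, to a kappaB-type motif that reads, in order, 3 G, any 2 bases, 2 T, any base and 2 C.
Nfkbia: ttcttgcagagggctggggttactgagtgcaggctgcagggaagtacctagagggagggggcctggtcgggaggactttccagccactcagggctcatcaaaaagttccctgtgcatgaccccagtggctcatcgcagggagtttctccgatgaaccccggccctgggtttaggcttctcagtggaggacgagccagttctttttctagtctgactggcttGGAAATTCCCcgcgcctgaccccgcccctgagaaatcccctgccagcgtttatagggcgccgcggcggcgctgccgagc
Tnfaip3: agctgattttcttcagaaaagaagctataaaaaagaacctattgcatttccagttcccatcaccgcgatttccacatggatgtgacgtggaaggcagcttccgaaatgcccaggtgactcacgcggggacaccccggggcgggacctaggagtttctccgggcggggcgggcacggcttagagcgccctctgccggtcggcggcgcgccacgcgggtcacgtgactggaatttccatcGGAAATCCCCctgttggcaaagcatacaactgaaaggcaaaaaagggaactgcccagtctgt
Nfkb2: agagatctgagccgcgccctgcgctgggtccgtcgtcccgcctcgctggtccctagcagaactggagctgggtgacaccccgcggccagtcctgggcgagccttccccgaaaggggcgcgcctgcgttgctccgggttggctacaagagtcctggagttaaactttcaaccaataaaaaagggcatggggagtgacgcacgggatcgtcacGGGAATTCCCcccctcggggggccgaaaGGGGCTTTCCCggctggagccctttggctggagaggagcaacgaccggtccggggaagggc
Tlr2: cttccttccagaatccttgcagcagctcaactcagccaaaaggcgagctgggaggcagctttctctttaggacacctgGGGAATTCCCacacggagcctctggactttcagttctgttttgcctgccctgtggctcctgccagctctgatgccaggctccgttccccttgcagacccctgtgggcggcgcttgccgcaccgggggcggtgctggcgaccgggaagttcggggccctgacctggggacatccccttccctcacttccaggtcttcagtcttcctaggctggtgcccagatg
The windows are chr12:55492598-55492897 (minus strand) for Nfkbia, chr10:19015361-19015660 (minus) for Tnfaip3, chr19:46304487-46304786 (plus) for Nfkb2 and chr3:83841559-83841858 (minus) for Tlr2. The Nfkbia match starts 29 bases before the start and the Tnfaip3 match 12 bases before it, each on the strand opposite to the gene. The Nfkb2 window holds matches at 3 positions, of which 2 overlap each other, and the match in Tlr2 reads the same on both strands. Windows were found for 7 of the 10 genes, and Nfkb1, Relb and Tlr4 have none in the table. These genes have 10 windows, of which 6 held the motif, while 4.79% of all 32851 promoter windows held it. The other Tnfaip3 window and those of Nfkbib, Rela and Myd88 held none, and the other Nfkb2 windows held it at a single shared site. The motif was thus present both in genes that fell and in genes that were not called.

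The subunit genes encode the proteins that form the DNA-binding dimers, and none of the 4 was called. Rela, which encodes the transactivating subunit p65, was at 87.1, 113 and 133 CPM in Opa1cKO, against 90.5, 117 and 135 CPM in WT, a log2 fold change of -0.10 (95% interval -0.36 to 0.16, edgeR adjusted p = 0.647). The ranges nearly coincided, although 2 Opa1cKO libraries lay below all WT libraries. Nfkb1, whose precursor is processed to p50, was at 82.2, 91.6 and 110.5 CPM in Opa1cKO, against 76.4, 85.0 and 87.9 CPM in WT. Of the Opa1cKO libraries, 5 lay above every WT library, and the log2 fold change of 0.17 (95% interval 0.00 to 0.34) had an unadjusted p of 0.0479 and an edgeR adjusted p of 0.193. Without Opa1cKO 6, the highest library, Nfkb1 stood at 0.08 (adjusted p = 0.615).

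Relb and Nfkb2 form the dimer of the non-canonical branch, in which the Nfkb2 product is processed to p52. Relb was at 10.1, 12.8 and 15.0 CPM in Opa1cKO, against 10.4, 11.4 and 11.9 CPM in WT (log2 fold change 0.14, 95% interval -0.11 to 0.39, edgeR adjusted p = 0.482). Of the Opa1cKO libraries, 4 lay above and 1 below the whole WT range, and the coefficient of variation was 14.7% in Opa1cKO and 5.4% in WT. Nfkb2 was at 15.0, 20.5 and 24.8 CPM in Opa1cKO, against 16.8, 22.5 and 28.5 CPM in WT (log2 fold change -0.23, 95% interval -0.53 to 0.07, edgeR adjusted p = 0.336). The span of the non-coding AC114539.1 lies opposite 1292 bases of Nfkb2, and it was at 4.33 CPM in Opa1cKO and 5.70 CPM in WT. Part of the Nfkb2 count may thus be uncertain, though shared exons were not checked.

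Tlr4 encodes the receptor for bacterial lipopolysaccharide, which also responds to released matrix fragments. It was at 98.0, 127 and 152 CPM in Opa1cKO, against 165, 174 and 181 CPM in WT. The WT libraries lay close together, with a coefficient of variation of 3.14%, and all 6 Opa1cKO libraries lay below them with a coefficient of 13.9%. Tlr4 fell to 73.8% of WT (log2 fold change -0.44, SE 0.0962, edgeR adjusted p = 0.0111). With the 4 libraries of contradicted sex left out it stood at -0.39 and was no longer called (adjusted p = 0.244). Among libraries female by their reads, a set added after the data were seen, it was called at -0.43 (adjusted p = 0.0163). In bulk tissue, fewer cells that express a gene and less RNA per cell cannot be told apart.

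Tlr2, the receptor for bacterial lipopeptides, was at 7.07, 9.69 and 13.2 CPM in Opa1cKO, against 9.00, 9.87 and 13.4 CPM in WT. The medians were close and the ranges overlapped (log2 fold change -0.14, 95% interval -0.49 to 0.22, edgeR adjusted p = 0.660). Myd88, the adaptor that both receptors use, was at 11.3, 13.4 and 14.0 CPM in Opa1cKO, against 12.5, 15.6 and 16.7 CPM in WT. All 6 Opa1cKO libraries lay below the WT median but only 1 lay below the whole WT range, and the log2 fold change of -0.22 (95% interval -0.44 to 0.01) was not called (edgeR adjusted p = 0.216). Myd88 overlaps 1736 bases of Acaa1a on the opposite strand, which was at 38.7 CPM in Opa1cKO and 40.3 CPM in WT. Slc22a14 covers all 5478 bases of Myd88 on the same strand and averaged 0.0119 CPM in Opa1cKO and 0.0346 CPM in WT. These are overlaps of gene spans, introns included, and shared exons were not checked. Any reads that fall in exons of both genes cannot be assigned.

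Toll-like receptors are abundant on leukocytes, so leukocyte markers were read beside Tlr4. The pan-leukocyte gene Ptprc had 2 to 17 counts in Opa1cKO libraries and 2 to 48 in WT libraries, and the macrophage gene Adgre1 had 0 to 2 and 0 to 8. Tlr4 had 4834 to 8624 counts in the same Opa1cKO libraries and 7954 to 9181 in the WT libraries. Of 16 macrophage and leukocyte markers 7 were tested, of which Csf1r and Cd163 fell and Cd68 rose. Over all genes tested, 5.1% were called higher and 5.13% lower. The summed level of the list ran from 107.0 to 124 CPM in Opa1cKO and from 118 to 207 CPM in WT (two-sided exact permutation p = 0.0238), and most of it was Csf1r, at 66.2 ± 8.85 CPM in Opa1cKO and 116 ± 34.7 CPM in WT (SD, n = 6 each). No marker of the list was at 0 in all libraries. The part of these markers in the Tlr4 result was not tested.

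**Figure D2:**
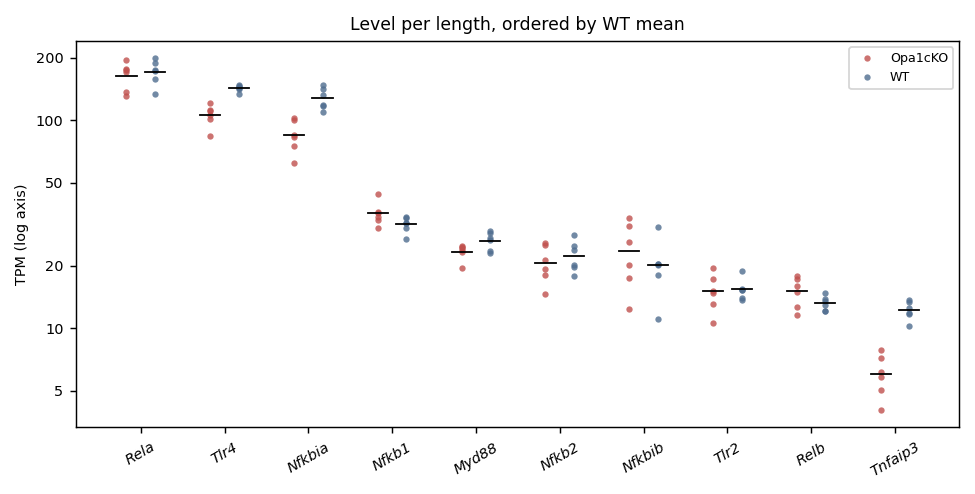
Level in TPM, the transcript level scaled by length and library size (log axis), of the 10 genes in 6 Opa1cKO and 6 WT libraries, 1 point per library with a bar at the mean, ordered by the WT mean. Rela, Tlr4 and Nfkbia lie above the other genes, and Tnfaip3 is the lowest gene in both genotypes.

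Levels of different genes were compared per length, in the authors' TPM. Rela was the highest, at 164 ± 24.6 TPM in Opa1cKO and 171 ± 23.0 TPM in WT (SD, n = 6 each). Tlr4 followed at 106 ± 12.8 TPM in Opa1cKO and 143 ± 4.97 TPM in WT, then Nfkbia at 84.8 ± 15.3 and 128 ± 15.3 TPM. These 3 stood apart from the rest, since the lowest Nfkbia library lay above the highest Nfkb1 library within each genotype. Nfkb1 came next, at 35.6 ± 4.70 TPM in Opa1cKO and 31.6 ± 2.63 TPM in WT. Nfkbib, Myd88, Nfkb2, Tlr2 and Relb had means between 15.0 and 23.5 TPM in Opa1cKO and between 13.2 and 26.3 TPM in WT, and each of these 5 overlapped the next of them in the order. Tnfaip3 was lowest, at 6.02 ± 1.40 TPM in Opa1cKO and 12.2 ± 1.25 TPM in WT. The TPM ranges of Rela and Tlr4 overlapped in WT but not in Opa1cKO, and so did those of Relb and Tnfaip3.

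Within each genotype 1 library was extreme for most of the genes. Opa1cKO 3, the most deeply sequenced library, was the lowest of the Opa1cKO libraries for 6 of the 10 genes in CPM, and for 7 in TPM. It was also the highest Opa1cKO library for Tlr2 and Tlr4. WT 6 was the highest WT library for 7 of the 10 genes in CPM and for 6 in TPM, and the lowest for none of the 10 in either unit. Without WT 6, Tnfaip3, Nfkbia and Tlr4 stood at -0.96, -0.51 and -0.41 and all 3 were called (edgeR adjusted p = 0.00963, 0.0460 and 0.0456). Without Opa1cKO 3 all 3 were called as well (adjusted p = 0.00247, 0.00833 and 0.00329).

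**Figure D3:**
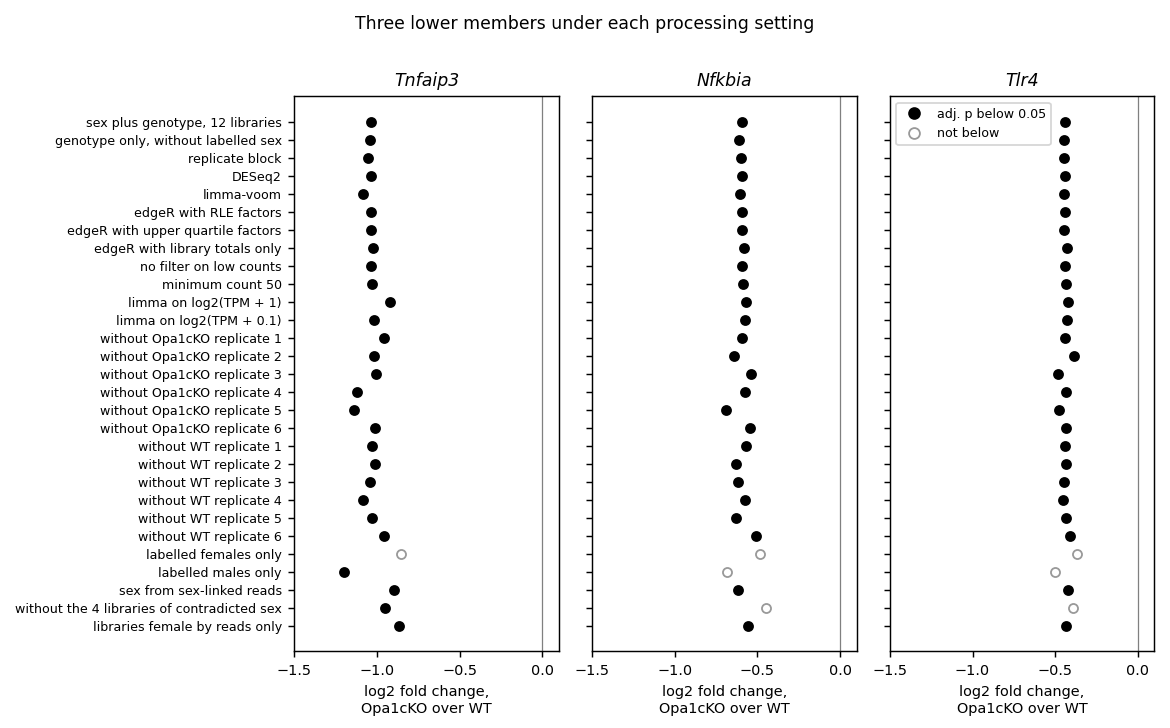
Log2 fold change, Opa1cKO over WT (x axis), of Tnfaip3, Nfkbia and Tlr4 under each processing setting (rows), with filled points where the adjusted p was below 0.05. All 3 genes were below 0 in every setting, and the open points are labelled females alone for all 3 genes, and labelled males alone and the set without the 4 libraries of contradicted sex for Nfkbia and Tlr4.

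The genotype difference was compared between labelled sexes with an interaction term. Of the 10 genes 0 were called (edgeR), as were 0 of the 15229 genes tested, or 0.0%. At an unadjusted p below 0.05 there was 1 of the 10, and likewise with DESeq2, which called 0. That gene was Tlr2, which stood at 0.20 in labelled males and -0.46 in labelled females (interaction 0.66 on the log2 scale, adjusted p = 0.797). In labelled males Tnfaip3, Nfkbia and Tlr4 stood at -1.20, -0.68 and -0.50, and in labelled females at -0.86, -0.49 and -0.37. With so few libraries per sex, Tnfaip3 in labelled males was the only 1 of these 6 values to be called (edgeR adjusted p = 0.0379). By their reads WT 5 and WT 6, the only WT libraries labelled male, were female, as was Opa1cKO 4, also labelled male. WT 4, labelled female, was male by its reads. The values by labelled sex and the interaction term thus do not compare true males with females.

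Beyond the 10 genes, 8 lists of other pathway members held 148 distinct genes, of which 109 were tested. Of these 10 rose and 4 fell, or 12.8% called, where 10.2% of all genes tested were called in either direction. With the 4 libraries of contradicted sex left out, 1 rose (Tnfrsf12a, 0.82, edgeR adjusted p = 0.0405) and 0 fell, and the other genes called in all 12 libraries had the same sign with adjusted p from 0.0536 (Nfkbiz) to 0.532 (Tnfrsf11a). With all 12 libraries and sex taken from the reads, Csf1 and Tnfrsf11a lost their calls (edgeR adjusted p = 0.0836 and 0.0990). The other pathway genes called with labelled sex kept theirs, and Ikbke was called as well (adjusted p = 0.0228). Of the 10 rises with labelled sex, 3 were in the list of cytokine receptors. With single libraries left out the number that rose ran from 2 (without Opa1cKO 6) to 14, and was 4 without WT 5, 5 without Opa1cKO 1 or WT 1, and 6 without WT 3. The number that fell ran from 1 (without Opa1cKO 6 or WT 6) to 4, and was 2 without Opa1cKO 4, WT 1, WT 2 or WT 5.

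**Figure D4:**
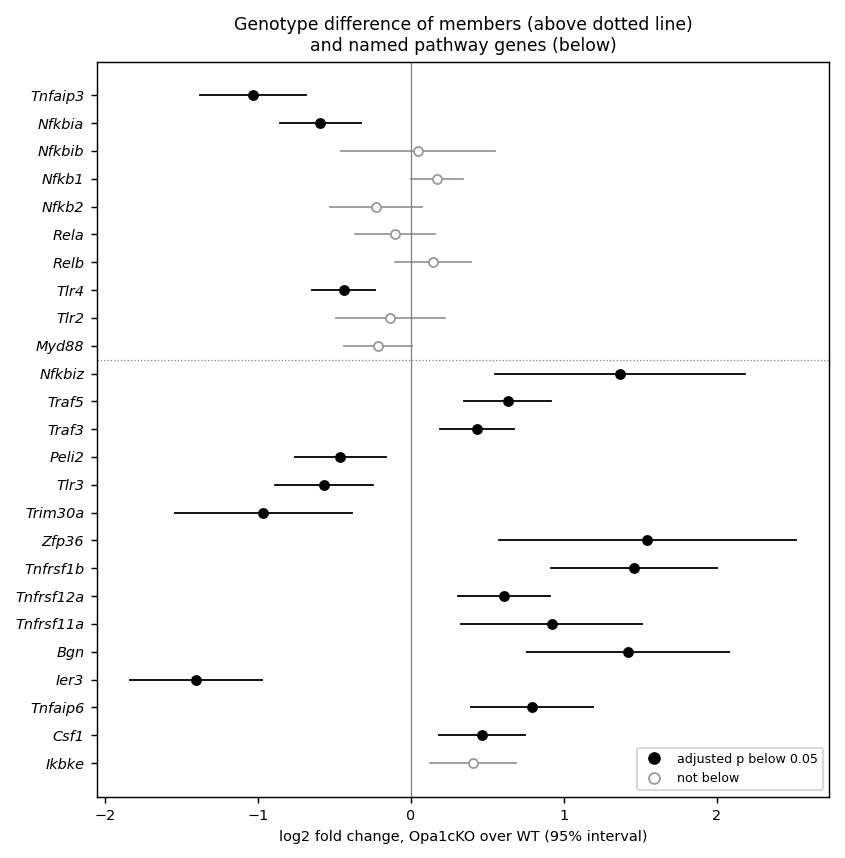
Log2 fold change, Opa1cKO over WT, with its 95% interval (x axis) for the 10 genes and for 15 named genes of the other pathway lists. Filled points were called; among the 10 genes these are Tnfaip3, Nfkbia and Tlr4, all below 0, while 10 of the other pathway genes lie above 0 with a call.

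Among other subunits and IkappaB-type regulators 1 of 6 tested rose. This was Nfkbiz, an inducible nuclear IkappaB protein, at 44.9, 150 and 221 CPM in Opa1cKO (lowest, median and highest library) against 30.5, 52.0 and 82.9 CPM in WT. Its log2 fold change was 1.37 (SE 0.372, edgeR adjusted p = 0.0400), and 5 of 6 Opa1cKO libraries lay above all WT libraries. The exception was Opa1cKO 3, and the call was lost without any 1 of 9 libraries, all but Opa1cKO 2, Opa1cKO 3 and WT 6 (adjusted p up to 0.122). Among the rest, Rel, the subunit prominent in lymphocytes, was at -0.25 (adjusted p = 0.215), and Nfkbie, which encodes IkappaB-epsilon, at 0.00 (adjusted p = 0.993).

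Of 18 kinases upstream of NF-kappaB none was called by edgeR and 1 was called by DESeq2. At an unadjusted p below 0.05 (edgeR) there were 5, where 25.2% of all genes tested were below it. The smallest p was that of Ikbke, a kinase related to the IkappaB kinases, at 15.3 ± 2.75 CPM in Opa1cKO and 11.7 ± 1.05 CPM in WT (SD, n = 6 each; log2 fold change 0.40, SE 0.131, adjusted p = 0.0663). The genes of the IkappaB kinase complex itself, Ikbkb, Chuk and Ikbkg, stood at 0.18, 0.16 and 0.03 (adjusted p = 0.256, 0.399 and 0.797). Their expression differences were thus all smaller than that of Ikbke.

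Among the other toll-like receptors and co-receptors 7 of 16 were tested and 1 fell. Tlr3, the endosomal receptor for double-stranded RNA, was at 7.09, 8.65 and 9.99 CPM in Opa1cKO, against 9.69, 12.8 and 16.6 CPM in WT (log2 fold change -0.57, SE 0.150, edgeR adjusted p = 0.0284). The call was lost without any 1 of 5 libraries (Opa1cKO 4, 5 or 6, or WT 5 or 6; adjusted p up to 0.0867). The Tlr4 co-receptor genes Cd14 and Ly96 stood at -0.24 and -0.04 (adjusted p = 0.506 and 0.935). Tlr1, Tlr7, Tlr8, Tlr9, Tlr11, Tlr12 and Tlr13 had too few counts to test.

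Of 22 adaptors and ubiquitin ligases 2 rose and 1 fell. Traf5, an adaptor of tumour necrosis factor family receptors, was at 35.9, 41.3 and 62.5 CPM in Opa1cKO, against 26.6, 28.4 and 35.2 CPM in WT, with no overlap (log2 fold change 0.63, SE 0.132, edgeR adjusted p = 0.00885). Traf3, which restrains the non-canonical branch, rose by 0.43 and Peli2, a ubiquitin ligase of toll-like receptor signalling, fell by 0.46 on the log2 scale (adjusted p = 0.0273 and 0.0484). Traf5 was not called without Opa1cKO 6 (0.46, adjusted p = 0.0520) or without the 4 libraries of contradicted sex (0.58, adjusted p = 0.185). Traf3 was not called without any 1 of 5 libraries (Opa1cKO 1 or 6, or WT 1, 5 or 6; adjusted p up to 0.153). Peli2 kept its call only without Opa1cKO 2, Opa1cKO 5 or WT 4 (adjusted p up to 0.171 otherwise).

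Among the brakes that act by ubiquitin editing or RNA decay, the group nearest in function to Tnfaip3, 1 of 14 tested rose and 1 fell. Zfp36, an RNA-decay factor induced with early response genes, was at 57.4, 194 and 319 CPM in Opa1cKO, against 33.3, 47.4 and 144 CPM in WT (log2 fold change 1.55, SE 0.441, edgeR adjusted p = 0.0494). It kept its call only without Opa1cKO 3 or WT 6 (adjusted p up to 0.138 otherwise). Trim30a, a negative regulator of toll-like receptor signalling in mice, was at 0.777, 1.64 and 2.26 CPM in Opa1cKO, against 2.49, 3.24 and 3.72 CPM in WT (log2 fold change -0.97, adjusted p = 0.0365). The groups did not overlap, but the call was lost without any 1 of 7 libraries (Opa1cKO 2 or 6, or WT 1, 2, 4, 5 or 6; adjusted p up to 0.131).

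Of 10 tested cytokine receptors 3 rose and 0 fell, all from the tumour necrosis factor receptor family. Tnfrsf1b, the second receptor for tumour necrosis factor, was at 7.24, 15.2 and 22.9 CPM in Opa1cKO, against 4.59, 5.81 and 7.53 CPM in WT (log2 fold change 1.46, SE 0.250, edgeR adjusted p = 0.00302), and was called with any single library left out but not without the 4 libraries of contradicted sex (1.38, adjusted p = 0.117). Tnfrsf12a, the receptor of the cytokine Tweak, rose by 0.61 (adjusted p = 0.0140) and was not called without Opa1cKO 6 (adjusted p = 0.0601), but was called without those 4 libraries. Tnfrsf11a, the receptor RANK, rose by 0.92 on the log2 scale at a low level, 1.52 ± 0.318 CPM in Opa1cKO and 0.922 ± 0.308 CPM in WT (SD, n = 6 each, adjusted p = 0.0487). It kept its call only without Opa1cKO 2, Opa1cKO 5 or WT 2 (adjusted p up to 0.153 otherwise). In each case 5 of 6 Opa1cKO libraries lay above all WT libraries.

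Of 12 tested ligands 1 rose and 0 fell. Bgn, which encodes the matrix proteoglycan biglycan, a ligand of Tlr2 and Tlr4 when released, was at 108, 185 and 485 CPM in Opa1cKO, against 74.6, 87.8 and 109 CPM in WT (log2 fold change 1.42, SE 0.303, edgeR adjusted p = 0.0128). It was called with any single library left out, at 0.89 (adjusted p = 0.0450) without Opa1cKO 6, the highest one, and was not called without the 4 libraries of contradicted sex (1.86, adjusted p = 0.106). The classical inducers were near the limit of detection: Tnf had 0 to 3 counts per library in both genotypes and Il1b had 0 to 8 in Opa1cKO and 0 to 9 in WT.

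**Figure D5:**
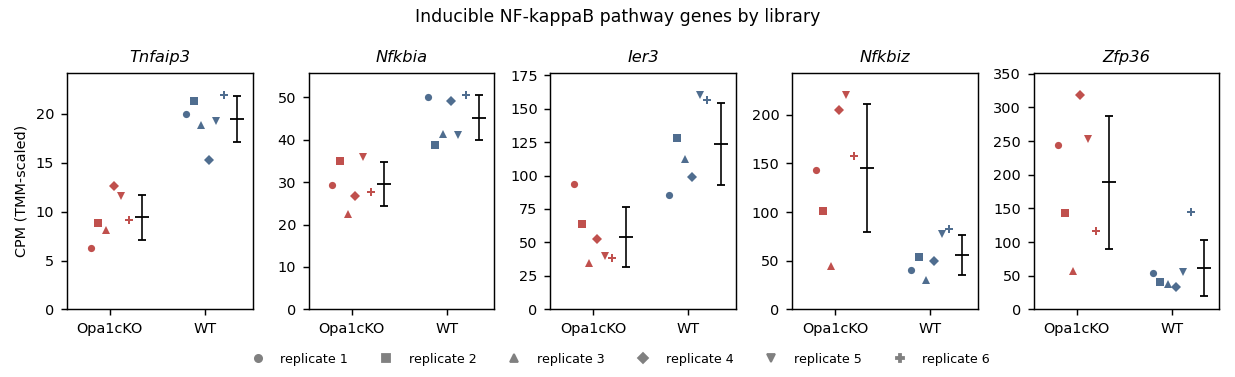
Level in CPM (y axis, from 0) of 5 inducible genes of the pathway in 6 Opa1cKO and 6 WT libraries, 1 point per library, a marker shape per replicate number, and a bar for mean ± SD. Tnfaip3, Nfkbia and Ier3 were lower in Opa1cKO, and Nfkbiz and Zfp36 were higher with Opa1cKO 3 as the lowest Opa1cKO library and WT 6 as the highest WT library for both.

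Of 20 tested NF-kappaB target genes 2 rose and 1 fell. Ier3, an early response gene that modulates survival, was at 34.9, 46.3 and 94.0 CPM in Opa1cKO, against 85.6, 120.2 and 160.4 CPM in WT, a fall to 37.8% of WT (log2 fold change -1.40, SE 0.199, edgeR adjusted p = 0.00101). It was not called without the 4 libraries of contradicted sex (-1.47, adjusted p = 0.0831). Tnfaip6, which encodes a hyaluronan-binding anti-inflammatory protein, rose by 0.79 with no overlap (adjusted p = 0.0155), and the growth factor gene Csf1 rose by 0.46 on the log2 scale (adjusted p = 0.0387). Tnfaip6 was not called without Opa1cKO 6, WT 5 or WT 6 (adjusted p up to 0.0619), and Csf1 was not called without any 1 of 8 libraries (all but Opa1cKO 3, 4 and 5 and WT 4; adjusted p up to 0.204). Many inflammatory targets, among them Ccl2, Cxcl1, Cxcl2, Vcam1, Nos2, Mmp3 and Mmp13, had too few counts to test. Their counts differed in size. Mmp3 had 3 to 66 in Opa1cKO libraries and 0 to 12 in WT libraries, Ccl2 had 1 to 18 and 2 to 17, and Vcam1 had 0 to 2 and 0 to 4.

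Tnfaip3, Nfkbia, Ier3, Nfkbiz and Zfp36 are all inducible genes. Inducible genes can respond to tissue handling, so a list of 16 immediate early and heat shock genes was read beside these named genes. Of the 16, 5 rose (Dusp1, Hspa1a, Hspa1b, Egr1 and Zfp36) and 1 fell (Ier3), where 5.1% of all genes tested were called higher and 5.13% lower. At an unadjusted p below 0.05 (edgeR) there were 13, against 25.2% of all genes tested. DESeq2 called 12 of the 16, with no share over all genes set beside it. The median log2 fold change was 1.55, and the summed level ran from 2559 to 15849.9 CPM in Opa1cKO and from 1035 to 7087 CPM in WT (two-sided exact permutation p = 0.0130). The lowest Opa1cKO library was Opa1cKO 3 and the highest WT library was WT 6, as for Nfkbiz and Zfp36. A large part of the summed level was Fos and Fosb. Fos was at 2428 ± 1354 CPM in Opa1cKO and 597 ± 735 CPM in WT (SD, n = 6 each). Fosb was at 2499 ± 1783 CPM in Opa1cKO and 378 ± 439 CPM in WT. Neither was called (edgeR adjusted p = 0.0572 and 0.0545). Zfp36 and Ier3 belong to the list, while Nfkbiz, which rose, and Tnfaip3 and Nfkbia, which fell, do not. The part of handling in these results was not tested.

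Likeness of profile was taken as the root mean square difference of mean-centred log2 CPM over the 12 libraries. Genes with Gm, Rik or clone names, immunoglobulin and T cell receptor segments, Xist and Y-linked genes were left out of this search. Among the remaining tested genes, the nearest to Tnfaip3 was the sodium leak channel gene Nalcn (0.156), then Tspyl3 (0.235) and Usp29 (0.243). Nalcn was at 14.2 ± 2.25 CPM in Opa1cKO and 30.2 ± 3.62 CPM in WT (SD, n = 6 each). The nearest to Nfkbia were Hoxa6 (0.140), a homeobox gene, Bmf (0.148), a pro-apoptotic gene, and Cavin3 (0.159), a caveola component. The nearest to Tlr4 were the cadherin gene Cdh2 (0.0847), the nucleotidase gene Nt5c2 (0.108) and the amyloid precursor gene App (0.115). Cdh2 was at 383 ± 48.3 CPM in Opa1cKO and 519 ± 34.7 CPM in WT (SD, n = 6 each). Because libraries of both genotypes enter this measure, it picks genes with a similar genotype difference. The levels of Nalcn and Cdh2 are thus no separate result.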

How the data were processed

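RNA of the tail nucleus pulposus was sequenced from 6 Opa1cKO and 6 WT mice. Per the labels' protocols, libraries were made from 50 ng of RNA with a stranded ribosomal-depletion kit and 14 PCR cycles. The submitters' processing notes name STAR 2.7.11b and the build mm10. The deposited table holds raw whole-number counts per gene, and the authors also deposited a TPM table. The read counter, the annotation behind it and how it treated strand are not stated in the labels or notes used.

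The test was that of edgeR 4.0.16 in R 4.3.3, with TMM factors, filterByExpr with a minimum count of 10, and a robust quasi-likelihood model of genotype with labelled sex over 12 libraries, with Benjamini-Hochberg adjustment over 15229 genes. Fold changes are Opa1cKO over WT. Genes with an adjusted p below 0.05 are called, and CPM values use TMM factors. Amplified copies were not separable from original molecules. Alternatives used DESeq2 1.42.0, limma 3.58.1 and others named at the end.

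The members, the lists and the tests were chosen with earlier results of these data known. Beside the 10 genes and Opa1, the rule named up to 4 called genes per list by p (with none called, the smallest p) and 3 genes of most alike profile for each of Tnfaip3, Nfkbia and Tlr4. Nfkbie, Rel, Ikbkb, Chuk, Ikbkg, Cd14, Ly96, Tnf and Il1b were added after their values were seen. Markers of neutrophils, endothelium, tendon, bone, epidermis, muscle and blood were also read, with 1 called gene, Phex of the bone list, which fell. The summed epidermis markers ran from 5.49 to 20.3 CPM in Opa1cKO and from 4.93 to 10.1 CPM in WT (two-sided exact permutation p = 0.0411). The permutation p was 0.0584 for endothelium and from 0.158 to 0.991 for the other lists of this group. All permutation tests of summed levels compared the genotypes without labelled sex.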

Additional observations from a re-analysis of the deposited data

Results flagged for a closer look

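Within a genotype, 3 of the 52 sets of 6 libraries examined (26 genes in 2 genotypes) held 1 library far from the rest, a number that chance alone could give, since about 1 in 20 such sets is picked out. Tlr2 was at 13.4 CPM in WT 1, against 9.00 to 10.2 CPM in the other WT libraries. Without WT 1 its log2 fold change was -0.06 (edgeR adjusted p = 0.861). Zfp36 was at 144.0 CPM in WT 6, against 33.3 to 55.1 CPM in the other WT libraries, and without WT 6 its log2 fold change was 2.02 (adjusted p = 0.0216). Csf1 was at 19.1 CPM in WT 4, against 16.0 to 16.9 CPM in the other WT libraries, and without WT 4 it stood at 0.48 (adjusted p = 0.0473).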

How the results depend on the processing

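Tnfaip3, Nfkbia and Tlr4 were below 0 in all 28 alternative fits and were called with any 1 library left out (log2 fold changes from -1.14 to -0.96, -0.69 to -0.51 and -0.49 to -0.39). The alternatives called 3 of the 10 genes lower and 0 higher except in labelled females alone (0 lower), labelled males alone (1 lower), without the 4 libraries of contradicted sex (1 lower) and at an adjusted p below 0.01, where Tlr4 was no longer called. Over all genes, leaving out 1 library gave 323 to 1002 higher and 496 to 1008 lower, with the counts over 1.5 times smaller without Opa1cKO 6 (323 and 496) or WT 6 (463 and 510), and in the other pathway lists 2 to 14 higher and 1 to 4 lower. Genes called higher and lower over all genes, and then in the pathway lists, were 351 and 418, 6 and 1 with a replicate block; 167 and 133, 4 and 1 in labelled females; 161 and 258, 1 and 1 in labelled males; 188 and 137, 1 and 0 without the 4 libraries; and 228 and 326, 2 and 1 at an adjusted p below 0.01. DESeq2 called 1189 genes higher, an adjusted p below 0.1 gave 1302 higher overall and 17 higher in the lists, limma on TPM gave 5 higher in the lists with either pseudocount, and libraries female by reads, a set added after the data were seen, gave 6. The numbers in the labels did not pair the libraries (correlations of same-numbered deviations from -0.217 to 0.0430), and all 3 calls held with the replicate block (adjusted p = 0.0182, 0.0457 and 0.0485). Signs turned for genes that were never called: Nfkbib with limma-voom (-0.00025) and with single libraries left out (-0.0588 to 0.187), Rela in labelled females (0.00378) and without the 4 libraries (0.0392), and Tlr2 in labelled males (0.198). The cause was not tested. Trim30a and Tnfrsf11a rest on the fewest counts of the called pathway genes, 33 to 125 and 48 to 86 per Opa1cKO library.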
